A study of Sus scrofa with 8 samples.

Results

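CD163, LYZ and GPNMB are 3 genes of monocytes and macrophages that were described here in the whole blood of sows. Every probe of the Agilent porcine array whose RefSeq transcript accession belongs to one of these genes was taken, which gave 11 of 43603 probes: 4 for CD163 (NM_213976), 3 for LYZ (NM_214392) and 4 for GPNMB (NM_001098584). They are 3 of the 1817 named genes measured. The genes were selected on their measured signal in pregnant against non-pregnant sows, so that their differences between the groups are given below as a description, with no test.

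CD163 is a scavenger receptor on monocytes and tissue macrophages that takes up complexes of haptoglobin and free haemoglobin, so that their haem can be broken down inside the cell. In pigs it is also known as an entry receptor of the porcine reproductive and respiratory syndrome virus. LYZ encodes lysozyme, which cleaves the peptidoglycan of bacterial cell walls and is stored by monocytes, macrophages and neutrophil granulocytes. GPNMB is a transmembrane glycoprotein of macrophages, dendritic cells, osteoclasts and pigment cells. It lies in lysosomal and melanosomal membranes, is transcribed under MITF and related factors, and its extracellular part binds syndecan-4 and integrins.

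Blood was drawn 14 days after insemination from 4 pregnant and 4 non-pregnant sows (Sus scrofa) of the fifth parity, and each sow has 1 single-colour (Cy3) array. All sows had been inseminated, and the groups differ by whether a pregnancy was present; the labels used here give no breed, age or housing. The design describes 3 half-sib pairs and 1 unrelated pair, and the labels do not say which sows form a pair. Replicates 1 and 3 of each group lay on slide 1 and replicates 2 and 4 on slide 2. Whole blood holds many cell types, and more cells of a type cannot be told apart from more RNA per cell.

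The 75th percentile of the spot signals ran from 142 on pregnant replicate 2, the dimmest array, to 296, and 61.7% to 69.3% of probes were well above background. No spot was saturated. Array pairs correlated across probes with r between 0.870 and 0.984, and the lowest value was 0.946 without pregnant replicate 2. Levels below are log2 signals relative to the 75th percentile of their own array, where 0 is that percentile and 1 unit is a doubling. A probe's level shows differences between sows and cannot be set against another probe's. The number of arrays limits the precision, and p-values measure only the spread between these 8 sows. Across all 26480 probes kept, limma called 0 between the groups at an adjusted p under 0.05, 0% of those tested, and 608 had an unadjusted p under 0.05. Over the 1817 named genes the count called was also 0 (0%), with 44 at an unadjusted p under 0.05.

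A probe was kept where the scanner marked it as well above background in 4 of 4 sows of either group. All 4 CD163 probes, all 3 LYZ probes and 2 of the 4 GPNMB probes passed it. Of the 9 kept probes, limma called 0, against the 0% of all probes. All 9 had a higher mean in the pregnant group, and at 2 of them the groups did not overlap. The filter has a part in this count, since A_72_P668821 of GPNMB passed it through the pregnant group alone. Of the 2 GPNMB probes dropped, A_72_P177966 had a lower mean in pregnancy (-0.21) and A_72_P557355 was well above background on no array. Under normexp background correction, 3 of the dimmer probes had a lower mean in pregnancy: A_72_P624895 (-0.22) and A_72_P170001 (-0.34) of CD163 and A_72_P668821 of GPNMB (-0.90). Among all kept probes 0.895% were higher in every pregnant sow than in every non-pregnant sow, and among genes, each read by its brightest kept probe, 0.715%. Nothing is read from this comparison, since the contrast itself was used to pick the genes.

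CD163, the haemoglobin scavenger receptor, had a wider range among the non-pregnant than among the pregnant sows, by an amount that depended on the probe. At its brightest probe, A_72_P177981, pregnant replicates 1 to 4 had levels of 2.84, 2.30, 2.69 and 2.67. Non-pregnant replicates 1 to 4 had levels of 1.12, 3.12, 2.06 and 1.64. The pregnant sows lay close together at this probe, while the non-pregnant group held both the lowest sow, replicate 1, and the highest sow of the series, replicate 2. From lowest to highest the signal spanned 4.01-fold in the non-pregnant group and 1.46-fold in the pregnant group. Over the 4 CD163 probes these ranges were 4.01-fold to 4.86-fold and 1.28-fold to 3.08-fold. The widest range in both groups was that of A_72_P624895, where pregnant replicate 2 lay low. The difference in spread was not tested.

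The mean CD163 level was 2.63 ± 0.23 (SD, n = 4) in pregnant and 1.98 ± 0.85 (SD, n = 4) in non-pregnant sows. The log2 difference was 0.64, a 1.56-fold higher signal in pregnancy. The groups overlapped, with 3 non-pregnant sows below every pregnant sow and the other one above all of them. Leaving out non-pregnant replicate 1 brought the log2 difference down to 0.35, and leaving out non-pregnant replicate 2 raised it to 1.02.

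The slides gave different CD163 values. On slide 1 (2 sows of each group) the log2 difference at A_72_P177981 was 1.18, and on slide 2 it was 0.11. The other 3 CD163 probes had log2 differences of 0.56 (A_72_P656100), 0.59 (A_72_P624895) and 0.52 (A_72_P170001) over all sows. On slide 1 these 3 gave 1.23, 1.42 and 1.05. On slide 2 the same 3 gave -0.11, -0.24 and -0.0065, so that the higher mean in pregnancy was carried by slide 1. Whether the slides differed was not tested. Slide 1 held the non-pregnant sow with the lowest CD163 level and slide 2 the one with the highest, at all 4 probes.

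LYZ, which encodes lysozyme, had a higher mean in pregnancy at all 3 probes. At its brightest probe, A_72_P737919, the pregnant sows had levels of 4.92, 4.89, 5.28 and 5.47 in replicates 1 to 4. The non-pregnant sows had levels of 4.93, 3.85, 4.49 and 4.70. Pregnant replicates 3 and 4 lay above every non-pregnant sow, and non-pregnant replicate 2 lay lowest of the series. The means were 5.14 ± 0.28 (SD, n = 4) in pregnant and 4.49 ± 0.46 (SD, n = 4) in non-pregnant sows, a log2 difference of 0.65.

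The other LYZ probes gave like differences. A_72_P721793 gave a log2 difference of 0.63, with 3 pregnant sows above every non-pregnant sow. At A_72_P177571 the groups did not overlap: the pregnant sows had levels of 3.73, 3.71, 4.22 and 4.49, and the non-pregnant sows 3.65, 2.84, 3.40 and 3.33. The log2 difference there was 0.74. For LYZ the difference lay in the same direction on both slides, with 0.39 on slide 1 and 0.90 on slide 2 at A_72_P737919, and 0.45 and 1.02 at A_72_P177571. At A_72_P737919 the lowest value with 1 array left out was 0.43, when non-pregnant replicate 2 was omitted, and the highest was 0.79, when non-pregnant replicate 1 was omitted.

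GPNMB, the lysosomal membrane glycoprotein, had the largest group difference of the 3 genes over all 8 arrays, and at 1 probe alone. This order depends on the setting: on slide 1 CD163 had the larger difference (1.18 against 0.68), and under normexp GPNMB had the smallest (0.31 against 0.97 for CD163 and 1.44 for LYZ). At A_72_P545262 the pregnant sows had levels of 0.11, 1.39, 0.13 and -0.037 in replicates 1 to 4. The non-pregnant sows had levels of -0.78, -1.11, -0.34 and -1.22. Every pregnant sow lay above every non-pregnant sow, and pregnant replicate 2 stood apart above the other pregnant sows. The means were 0.40 ± 0.66 (SD, n = 4) in pregnant and -0.86 ± 0.40 (SD, n = 4) in non-pregnant sows, a log2 difference of 1.26 and a 2.40-fold higher signal. Without pregnant replicate 2 the log2 difference was 0.93, and without non-pregnant replicate 3 it was 1.44. It was 0.68 on slide 1 and 1.84 on slide 2.

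The other GPNMB probes were dim. A_72_P668821 was well above background on all 4 pregnant and 3 of the 4 non-pregnant arrays. Its levels were -3.99, -3.69, -3.70 and -2.81 in the pregnant sows and -3.53, -3.49, -3.95 and -4.40 in the non-pregnant sows. The groups overlapped and the log2 difference was 0.29, which fell to 0.050 without pregnant replicate 4. On slide 1 it was -0.10 and on slide 2 it was 0.69. A_72_P177966 was well above background on 2 pregnant and 3 non-pregnant arrays only, with a log2 difference of -0.21. A_72_P557355 was well above background on no array of either group, so no difference is given for it.

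**Figure D1:**
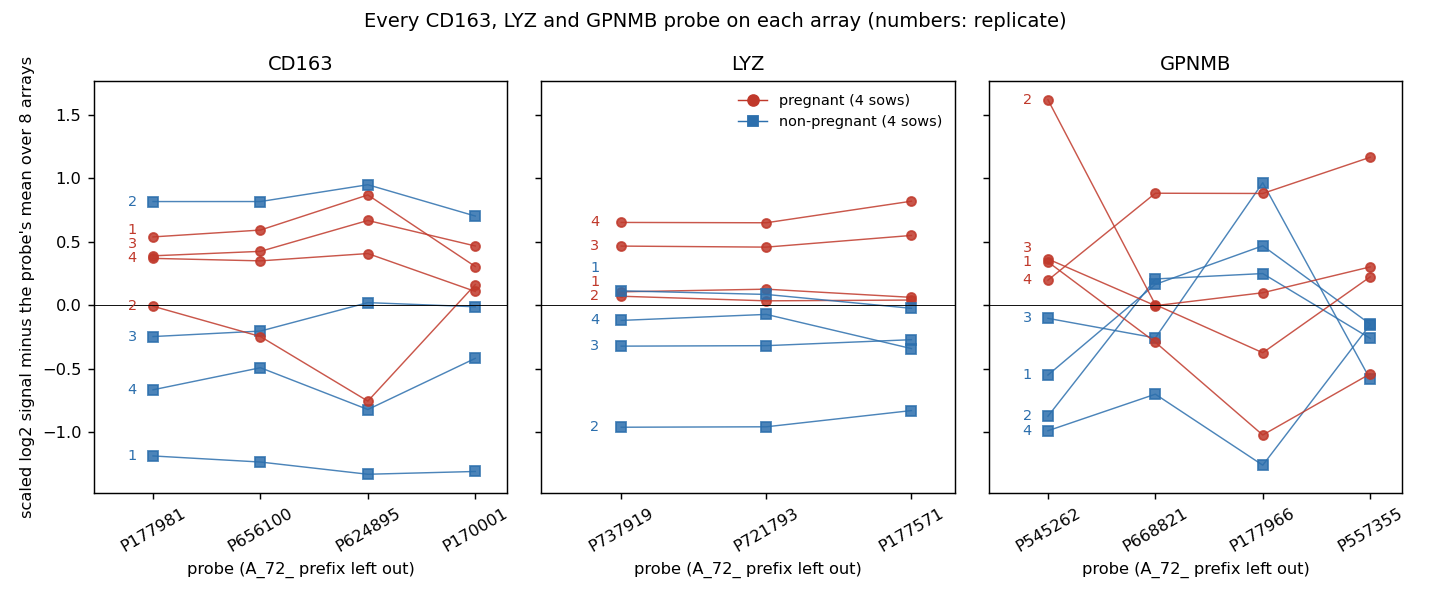
Signal of each CD163, LYZ and GPNMB probe on the 8 arrays, as log2 signal relative to the array's 75th percentile minus the probe's own mean over the 8 arrays. A line joins the values of 1 sow (red circles pregnant, blue squares non-pregnant, numbers give the replicate). Apart from pregnant replicate 2 at P624895, sows keep nearly the same place across the CD163 probes and across the LYZ probes, whereas the lines of GPNMB cross, and pregnant replicate 2 lies 1.62 above the mean at P545262 and 0.0036 above it at P668821.

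**Figure D2:**
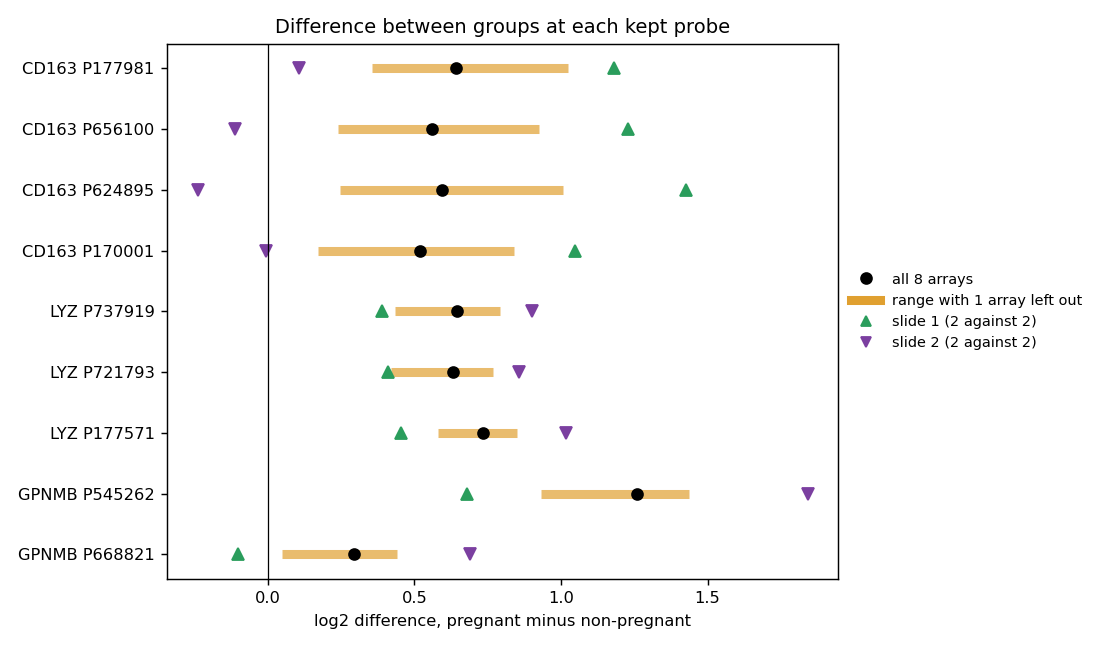
Log2 difference between pregnant and non-pregnant sows at each of the 9 kept probes, over all 8 arrays (black), on slide 1 (green, 2 against 2) and slide 2 (purple, 2 against 2), with the range reached when 1 array is left out (orange bar). CD163 differs more on slide 1 than on slide 2, and LYZ and GPNMB more on slide 2 than on slide 1.

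Among the 1817 genes measured, 8 (0.440%) had a higher log2 difference than GPNMB, 68 (3.74%) than LYZ and 70 (3.85%) than CD163. CD163, LYZ and GPNMB were selected on this same contrast between pregnant and non-pregnant sows. Their places therefore follow from the selection, and do not show that these genes stand out. The median log2 difference of all genes was -0.034, and 807 of the 1817 (44.4%) had a higher mean in pregnancy. That count was 1087 of 1817 under normexp, 928 of 1883 on slide 1 alone and 831 of 1882 on slide 2 alone. The SD within groups, pooled over both, was 0.62 for CD163, 0.38 for LYZ and 0.55 for GPNMB, and 74.3%, 42.2% and 67.6% of genes had a lower one. The median gene had 0.42. CD163 thus combined its difference with a larger spread between sows than most genes, and LYZ did not.

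Probes of 1 gene can be checked against each other across sows, which does not depend on the difference between the groups once group means are removed. Each of the 6 pairs of CD163 probes followed one another over the 8 arrays, with Pearson r from 0.856 to 0.985 and Spearman rho from 0.905 to 1.0. Each of the 3 pairs of LYZ probes did so with r from 0.960 to 0.999 and rho from 0.905 to 0.976. Among these 9 pairs the highest exact permutation p was 0.00186 (two-sided, adjusted 0.00207 over 10 pairs). With group means removed r was 0.832 to 0.984 for CD163 and 0.927 to 0.997 for LYZ, with adjusted exact permutation p of at most 0.0328. Without the 2 arrays farthest from the median, the r of A_72_P624895 with A_72_P170001 fell to 0.645, and that of the other 8 pairs stayed between 0.803 and 0.993.

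The 2 kept GPNMB probes were not seen to follow one another. Their r was 0.19 and rho 0.071 (exact permutation p = 0.648, adjusted 0.648), -0.090 without the 2 arrays farthest from the median and -0.14 with group means removed. The step from A_72_P668821 to A_72_P545262 ranged from 2.38 on non-pregnant replicate 2 to 5.08 on pregnant replicate 2, with an SD of 0.88 over the arrays. For the 2 brightest LYZ probes the SD of the step was 0.027. The GPNMB result therefore rests on 1 probe, and A_72_P668821, near background, gave neither its size nor its order of sows. Which transcript forms each probe reads was not tested.

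No pair among CD163, LYZ and GPNMB passed a test of rising and falling together from sow to sow. Over the 8 arrays CD163 and LYZ had a Pearson r of -0.12 and a Spearman rho of -0.071 (exact permutation p = 0.775, adjusted 0.775 over 3 pairs). CD163 and GPNMB had an r of 0.25 and a rho of 0.29 (exact permutation p = 0.543, adjusted 0.775). LYZ and GPNMB had an r of 0.47 and a rho of 0.48 (exact permutation p = 0.233, adjusted 0.698). Without the 2 arrays farthest from the median of the first gene, the r values were -0.21, -0.50 and 0.31. These values hold the group contrast on which the genes were selected, and values with group means removed are given below. With 8 arrays they do not show that the genes are independent.

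Other probes gave the same picture. Over the 12 pairings of a CD163 with a LYZ probe, r ran from -0.20 to 0.081 and was below 0 in 9. The 8 pairings of CD163 with the kept GPNMB probes gave 0.021 to 0.31, and the 6 of LYZ with GPNMB gave 0.31 to 0.51. Set against the r values of the 1814 other genes with CD163, GPNMB came 218th and LYZ 977th. By r with LYZ, GPNMB came 139th and CD163 1187th, and by r with GPNMB, LYZ came 302nd and CD163 504th. These places also hold the group contrast.

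Among the non-pregnant sows CD163 and LYZ ran in opposite order at their brightest probes. CD163 was highest in replicate 2, followed by 3, 4 and 1. LYZ was highest in replicate 1, followed by 4, 3 and 2. LYZ probe A_72_P721793 had the same order as A_72_P737919, but at A_72_P177571 the order was 1, 3, 4 and 2, which is not the reverse of CD163. The opposite order of the brightest probes was found under 6 of 7 ways of scaling or summarising the signals, the exception being normexp background correction. With group means removed over all 8 sows, CD163 and LYZ had an r of -0.78 (exact permutation p within groups = 0.0833, adjusted 0.250 over 3 pairs). With group means left in, r was -0.12 over all 8 sows. It was 0.49 when non-pregnant replicate 2, the sow with the highest CD163 and lowest LYZ level, was left out. The 0.49 holds the group contrast and is not to be set against the -0.78. An r with group means removed is not given without that sow. In the pregnant group CD163 ran in the order 1, 3, 4 and 2 and LYZ in the order 4, 3, 1 and 2. These orders are not opposite, and replicate 2 was lowest for both genes. The -0.78 pools both groups, and CD163 had an SD of 0.85 among non-pregnant and 0.23 among pregnant sows. It therefore does not show an inverse relation within each group. The remaining pairs had r of -0.30 (CD163 and GPNMB) and -0.20 (LYZ and GPNMB) with group means removed (exact permutation p = 0.410 and 0.562, adjusted 0.562 each).

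**Figure D3:**
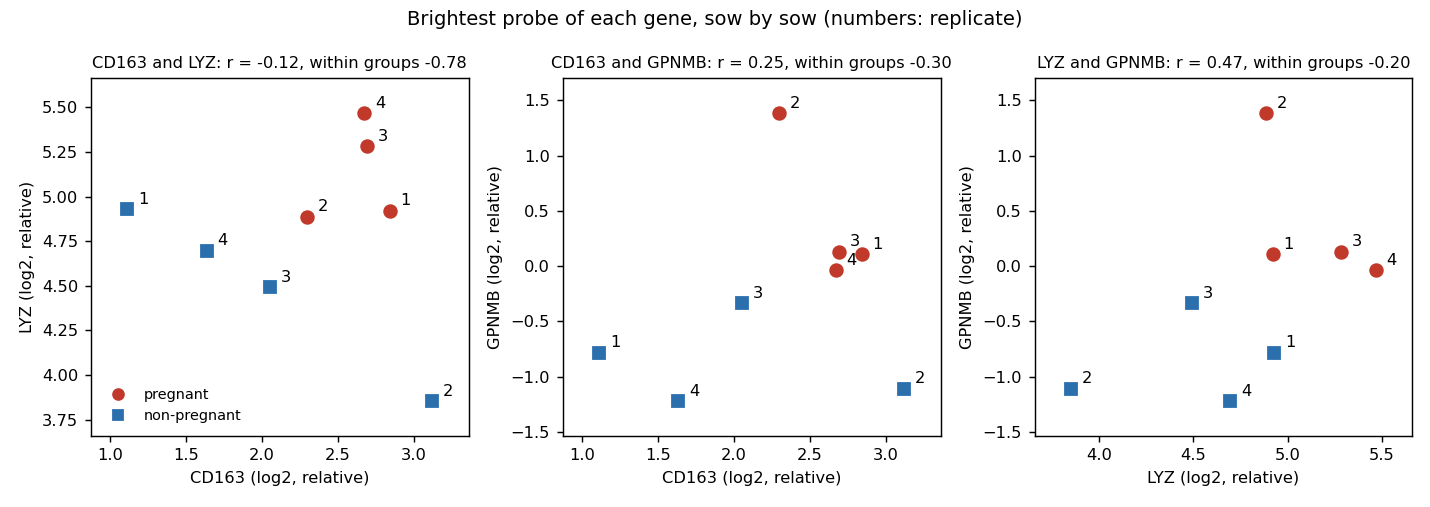
Level of each gene at its brightest probe in each sow, plotted against that of the other genes, in log2 signal relative to the array's 75th percentile (red circles pregnant, blue squares non-pregnant, numbers give the replicate). In the panel of CD163 and LYZ the non-pregnant sows fall along a descending line from replicate 1 to replicate 2, and the r over all 8 sows is -0.12.

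The blood also carried transcripts of other monocyte and macrophage genes. Of 29 listed markers besides the 3 genes, 14 were measured, among them CD14 (the endotoxin co-receptor), FCGR1A (an Fc receptor) and S100A8 (a calcium-binding protein of myeloid cells). A further pair, SIGLEC1 and C1QA, had probes that were not well above background. A higher mean in pregnancy was seen for 13 of the 14, against 44.4% of all genes, with a median log2 difference of 0.19 against -0.034 over all genes. No marker passed limma's threshold, and none had an unadjusted p under 0.05. Without non-pregnant replicate 3, 8 of the 14 had a higher mean and the median was 0.035. On slide 1 alone 13 of 15 markers measured there had a higher mean, with a median of 0.40, and on slide 2 alone 6 of 14, with a median of -0.059. Their summed linear signal, relative to the 75th percentile, was 227 to 287 in pregnant and 161 to 327 in non-pregnant sows, so the groups overlapped.

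The mean of these 14 markers was not found to track the 3 genes across sows. Its r was -0.18 with CD163, 0.36 with LYZ and 0.26 with GPNMB, and rho was -0.12, 0.19 and 0.14. The exact permutation p was 0.674, 0.391 and 0.540 (adjusted 0.745, 0.669 and 0.669 over 21 relations of 3 genes to 7 measures). Without the 2 arrays farthest from the median the r values were -0.082, -0.85 and 0.019, so the LYZ value turned with those arrays.

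The 2 relations of largest size among the 21 concerned GPNMB. Its level at A_72_P545262 had an r of 0.96 and a rho of 0.90 with the mean of 6 melanocyte genes. With the mean of 9 T cell genes it had an r of -0.92 and a rho of -0.86. GPNMB was selected on the difference between the groups, which enters these values, so they are given as a description. With group means removed r was 0.88 with melanocyte genes (exact permutation p = 0.0469, adjusted 0.565) and -0.87 with T cell genes (exact permutation p = 0.0538, adjusted 0.565), and neither passed the threshold. Without the 2 arrays farthest from the median, r was 0.85 and -0.82. Without pregnant replicate 2, the sow at the end of both relations, r was 0.88 and -0.78.

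Of the melanocyte list, 6 of 11 genes were measured and all 6 had a higher mean in pregnancy, with a median log2 difference of 0.17 and 0 called. DCT, a melanin-synthesis enzyme, had a log2 difference of 1.99, and SOX10, a transcription factor of neural crest cells, 1.09. MITF had 0.22, KIT 0.12, MC1R 0.087 and OCA2 0.066. DCT and SOX10 followed GPNMB with r of 0.84 and 0.81, whereas MITF had -0.13 and KIT -0.050. Such r values were not particular to this list: NPG4, an antimicrobial peptide of pig leukocytes, and HPX, haemopexin, each had 0.84 with GPNMB. DCT also had a low unadjusted limma p between the groups (0.000192, adjusted 0.348), so the contrast enters its r too. The median of the melanocyte list was 0.35 when pregnant replicate 2 or 4 was left out, 0.33 when non-pregnant replicate 4 was and 0.30 when pregnant replicate 1 was. A higher mean was seen for 4 of the 6 without pregnant replicate 2 or non-pregnant replicate 1. On slide 2 alone 2 of the 6 had a higher mean (median -0.054), and under normexp 3 of the 6 (median 0.024, below the 0.21 of all genes under that setting). TYR and TYRP1, the defining enzymes of pigment cells, were not well above background. The summed signal of the list was 8.46 to 12.4 in pregnant and 6.60 to 11.9 in non-pregnant sows. Its part in the GPNMB difference was not tested.

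Of the T cell list, 9 of 12 genes were measured, and all 9 had a lower mean in pregnancy, with a median log2 difference of -0.28. None was called by limma, and 1 had an unadjusted p under 0.05. The direction of the median turned under normexp, where 6 of the 9 had a higher mean and the median was 0.37 against 0.21 over all genes. Without pregnant replicate 2 the median was -0.20. The summed signal was 43.4 to 61.7 in pregnant and 57.7 to 68.6 in non-pregnant sows. The most negative r values with GPNMB were -0.94 for CD3D, a chain of the T cell receptor complex, and -0.90 for CD4, the co-receptor of helper T cells. The weakest of the 9 were -0.37 for IL7R and -0.51 for CD2. CD3D had an unadjusted limma p of 0.0481 between the groups (adjusted 0.999), so the contrast enters its r too. The part of T cell transcripts in the differences of CD163, LYZ and GPNMB was not tested.

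**Figure D4:**
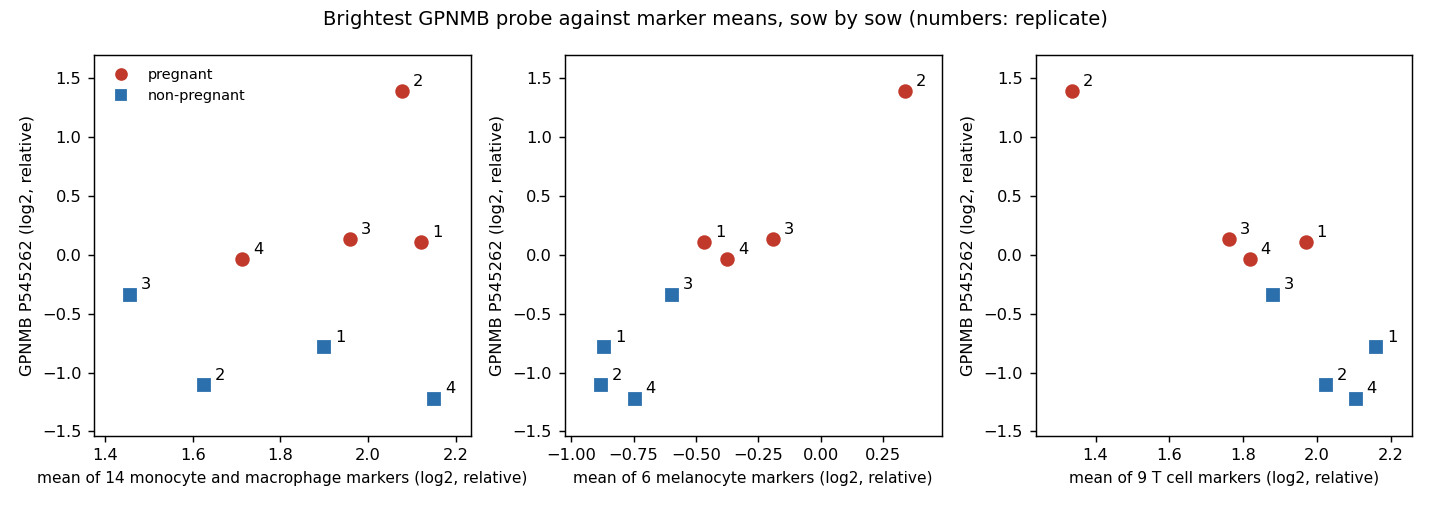
Level of GPNMB at A_72_P545262 in each sow against the mean of 14 monocyte and macrophage markers (left), 6 melanocyte markers (middle) and 9 T cell markers (right), all in log2 signal relative to the array's 75th percentile (red circles pregnant, blue squares non-pregnant, numbers give the replicate). Pregnant replicate 2 lies at the end of the middle and right panels, with r of 0.96 and -0.92 over all sows.

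Markers of other blood cells gave these values. Cytotoxic and NK cell genes had a lower mean in pregnancy for 7 of 7 measured, with a median log2 difference of -0.56, a summed signal of 67.5 to 123 in pregnant and 93.8 to 188 in non-pregnant sows, and 0 called. The median was -0.34 when non-pregnant replicate 2 or pregnant replicate 3 was left out, and 5 to 7 of the 7 had a lower mean with any 1 array left out. Under normexp 5 of the 7 were higher, with a median of 0.11 against 0.21 over all genes. Their mean had an r of -0.74 with LYZ (exact permutation p = 0.0322, adjusted 0.225; rho = -0.69; -0.21 without the 2 arrays farthest from the median), and -0.50 with group means removed (exact permutation p = 0.292, adjusted 0.740). Neutrophil genes were split, with 3 of 6 higher and a median of 0.17 (0.63 when pregnant replicate 4 was left out, and -0.0033 when non-pregnant replicate 1 was), and their mean had an r of -0.32 with LYZ (rho = -0.64, exact permutation p of r = 0.438, adjusted 0.669). Both measured B cell genes and both red cell genes had lower means, and 4 of 5 platelet genes did, with 0 called in each list. Both red cell genes had higher means when pregnant replicate 1 or 4 was left out, and all 5 platelet genes did under normexp. These marker lists do not separate cells that share transcripts, and their part in the differences of the 3 genes was not tested.

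The array's own 75th percentile, a measure of overall brightness, had an r of 0.37 with CD163, -0.047 with LYZ and -0.37 with GPNMB (exact permutation p = 0.376, 0.912 and 0.366, adjusted 0.669, 0.912 and 0.669; rho = 0.67, 0.12 and -0.024).

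Genes around the function of CD163 were measured in part. Haptoglobin and haemopexin carry free haemoglobin and haem, haem oxygenase breaks haem down, and ferritin stores the iron. Of 24 listed genes besides CD163, 11 were measured, 7 with a higher and 4 with a lower mean in pregnancy. Limma called 0, none had an unadjusted p under 0.05, and the median log2 difference was 0.18 against -0.034 over all genes. That median was 0.078 when pregnant replicate 2 was left out, 0.081 when pregnant replicate 3 was and 0.089 when non-pregnant replicate 1 was. It was 0.31 without pregnant replicate 4, 0.28 without pregnant replicate 1 and 0.0053 on slide 2 alone. HP (haptoglobin) had a log2 difference of 0.13, HPX (haemopexin) 0.29, HMOX1 (haem oxygenase) 0.24 and FTH1 (ferritin heavy chain) 0.18. TFRC, the transferrin receptor, and IL6, an inducer of hepcidin, were not well above background. Of the wider scavenger receptors, 5 of 17 listed were measured and 3 had a higher mean, with a median of 0.17 and 0 called. Without pregnant replicate 1 this median was -0.082. CD36 and SCARB1, receptors of lipoproteins, had log2 differences of -0.032 and -0.032, CXCL16, a chemokine and receptor of oxidised lipoprotein, 0.50, and CLEC7A, a receptor of fungal glucans, 0.17. CD163L1, the relative of CD163 that lies near it on chromosome 5, was not well above background.

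Antimicrobial proteins, and proteins that bind or sense bacterial products, formed the list around LYZ. Of its 23 other genes 13 were measured, 10 with a higher and 3 with a lower mean in pregnancy. The sensors NOD1 (0.17) and NOD2 (0.27) were among those higher. Limma called 0, none had an unadjusted p under 0.05, and the median log2 difference was 0.17. LTF (lactoferrin, an iron-binding granule protein) had a log2 difference of 0.40. NPG4 and PMAP-36, antimicrobial peptides of pig leukocytes, had 0.98 and 0.77, and PR39, a proline-rich peptide of the same family, had -0.34. Pregnant replicate 2 was the highest sow for NPG4, at 3.07, and for PMAP-36, at -1.17. When this sow was left out the log2 differences were 0.37 (NPG4), 0.29 (PMAP-36) and -0.45 (PR39). PMAP-36 was not well above background on every array. On slide 1 alone 11 of the 13 had a higher mean (median 0.44) and on slide 2 alone 5 of the 13 (median -0.22). Without non-pregnant replicate 3 or pregnant replicate 2, 6 of the 13 had a higher mean (medians -0.034 and -0.011). LYZ itself differed more on slide 2 than on slide 1.

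Binding partners and regulators of GPNMB were measured for 8 of 17 listed genes, 4 with a higher and 4 with a lower mean. The median log2 difference was -0.014, and limma called 0 with none at an unadjusted p under 0.05. The count of higher means was 2 of 8 without pregnant replicate 2 and 6 of 8 without non-pregnant replicate 3, and the median lay between -0.19 and 0.11 with 1 array left out. MITF, the transcription factor that drives GPNMB in pigment cells and osteoclasts, had a log2 difference of 0.22. SDC4 (syndecan-4), a receptor of GPNMB, had 0.25, and the integrin chains ITGB1 and ITGB3 had -0.38 and 0.030.

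Lysosome and phagosome genes, among which the GPNMB protein resides, were measured for 20 of 35 listed genes. A higher mean was seen for 8 and a lower mean for 12, with a median log2 difference of -0.030 and 0 called, none with an unadjusted p under 0.05. LAMP1, a lysosomal membrane protein, had a log2 difference of -0.072. The cathepsin proteases CTSB, CTSD and CTSK had 0.21, -0.021 and -0.083. The slides gave opposite values: 18 of the 20 had a higher mean in pregnancy on slide 1 (median 0.32) and 2 of the 20 on slide 2 (median -0.31). Under normexp all 20 had a higher mean, as did 1087 of all 1817 genes. With 1 array left out the count ran from 5 of 20 without non-pregnant replicate 3 to 14 of 20 without pregnant replicate 2 or non-pregnant replicate 4. Whether the slides differed was not tested.

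Growth factors, cytokines, receptors and transcription factors of macrophages were measured for 13 of 27 listed genes, 6 with a higher and 7 with a lower mean and a median log2 difference of -0.0023. Limma called 0, with none at an unadjusted p under 0.05. Without pregnant replicate 2 the count of higher means was 10 of 13 (median 0.16), and without non-pregnant replicate 1 or 4 it was 9 of 13. IL4, the cytokine of alternative macrophage activation, had a log2 difference of -0.68, and its receptor chain IL4R had 0.68. IL13RA1, a chain of the receptor shared by IL-4 and IL-13, had 0.27, and IL10, which raises CD163 in monocytes, had -0.087. Pregnant replicate 2 was the lowest sow for IL4, at -4.44, below the lowest level well above background on its array (-4.09). The same sow was the highest for IL4R, at 1.90.

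**Figure D5:**
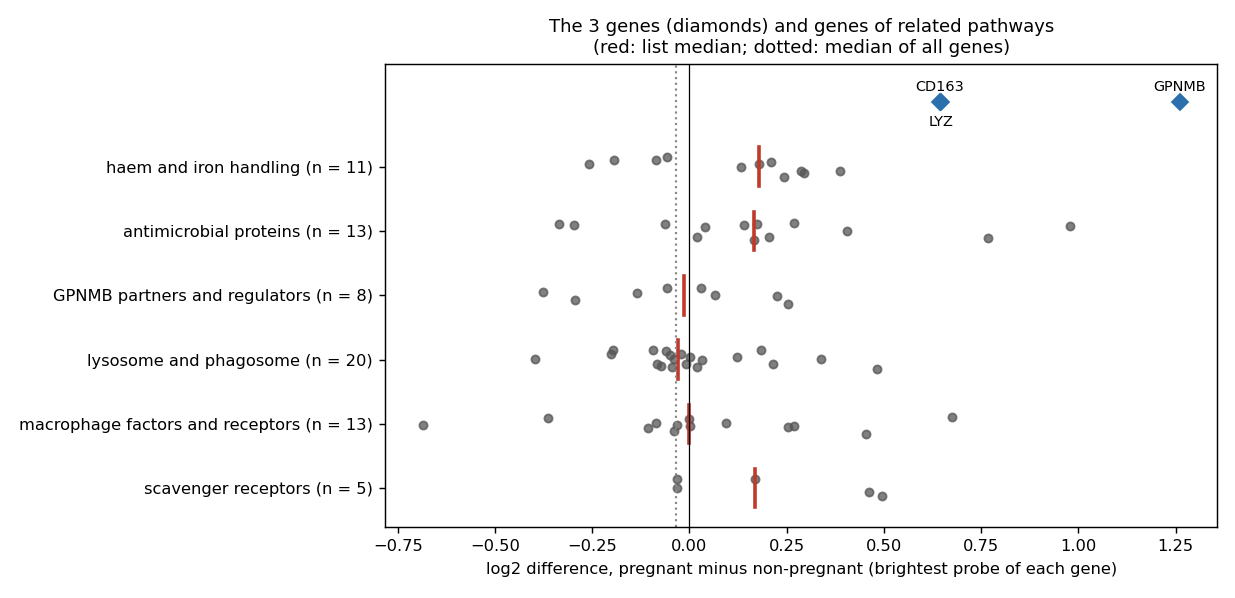
Log2 difference between pregnant and non-pregnant sows for the measured genes of 6 lists related to CD163, LYZ and GPNMB (grey points, brightest kept probe of each gene), with the list median (red) and the median of all genes, -0.034 (dotted). CD163, LYZ and GPNMB themselves (blue diamonds) lie at 0.64, 0.65 and 1.26, and the list medians lie between -0.030 and 0.18.

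The genes whose levels were most like those of each member were taken by Pearson r over the 8 arrays among 1814 genes, as a description. For CD163 these were ST7 (0.83), SIRT3 (0.76), NOD2 (0.76), PNPLA2 (0.75) and TRIM26 (0.74). Their r values with pregnant replicate 2 left out were 0.83, 0.80, 0.76, 0.75 and 0.89, which placed them 7th, 9th, 12th, 15th and 3rd, so only TRIM26 remained among the first 5. NOD2 is a cytosolic sensor of bacterial cell-wall fragments, SIRT3 a mitochondrial deacetylase and PNPLA2 a triglyceride lipase. For LYZ these were GADD45A (0.87), IL15 (0.87), USP18 (0.81), AZIN2 (0.80) and MYBPH (0.80). GADD45A and IL15 remained the first 2 when pregnant replicate 2 was left out, and the others came 8th, 7th and 13th. IL15 is a cytokine that acts on NK and memory T cells. GADD45A responds to stress and DNA damage, and USP18 removes the interferon-induced modifier ISG15.

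For GPNMB the r values were higher. They were 0.96 for CYP21A2 (steroid 21-hydroxylase), 0.94 for SSTR3 (a somatostatin receptor), 0.93 for RXFP4 (a receptor of insulin-like peptide), 0.92 for CYP2D25 (a cytochrome P450) and 0.92 for CDK5R1 (an activator of the kinase CDK5). Without pregnant replicate 2 these were 0.90, 0.90, 0.86, 0.81 and 0.80, in places 2, 1, 6, 8 and 11. These 5 genes had log2 differences of 2.06, 1.03, 1.28, 1.04 and 0.87 between the groups. GPNMB was selected on that contrast, which enters these r values, and no values with group means removed are given for them. The same holds for the genes most like CD163 and LYZ.

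In the gene order of the Sscrofa11.1 assembly, CD163 and LYZ lie on chromosome 5 and GPNMB on chromosome 9. CD163 neighbours CLEC4E, LYZ lies between CPSF6 and YEATS4, and GPNMB lies between NUPL2 and MALSU1.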

How the data were processed

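Total RNA of whole blood was hybridised to 8 single-colour Agilent arrays. The authors deposited 1 scanner file per array, from Agilent Feature Extraction (version 10.7 in the submitters' processing notes, 10.7.3.1 in the headers). Its processed signal is an intensity on a linear scale, background-subtracted per the file headers. A second deposited file holds log2 values, and their normalization and centring were not given in the sources used here. Every column of that table followed the log2 signal of its own array (r of at least 0.99895) and had a median of 5.03, and it served as an alternative.

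Control and outlier spots were left out, and 215 probes marked on some array were dropped. Signals were taken as log2 minus the array's 75th percentile, and 26480 probes passed the filter. RefSeq accessions named 5461 of 5779 probes (2389 symbols, Sscrofa11.1 table, names only), and the brightest kept probe stood for a gene. The group comparison used lmFit and eBayes of limma 3.58.1 (R 4.3.3, checked on simulated data), two-sided, Benjamini-Hochberg adjusted, threshold 0.05. Correlations across arrays used exact permutation of all pairings (Python 3.11.15, numpy 2.4.6), within groups where group means were removed.

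The genes and lists were chosen with earlier results of these data known. Named genes were the members, the 5 most correlated genes of each, and the first 4 measured genes of each pathway list. Marker lists covered monocytes and macrophages, neutrophils, T, cytotoxic and NK, B, platelet, red cell and melanocyte genes. Alternatives were other scalings, background corrections, filters, slide or replicate blocks, slides alone, array weights, variance priors, the deposited table, probe means and 1 array left out.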

Additional observations from a re-analysis of the deposited data

Results flagged for a closer look

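In the pregnant group, GPNMB at A_72_P545262 had 1 sow far from the others. Pregnant replicate 2 had a level of 1.39 and the other 3 pregnant sows -0.037 to 0.13, so the gap to the nearest sow took a share of 0.883 of the group's range, above the critical value of Dixon's test for 4 samples. IL10, the cytokine that raises CD163 in monocytes, had the same sow lowest: -0.93 against -0.26 to -0.17 in the other pregnant sows, a share of 0.884. These were 2 of 66 groups examined over 33 items, and chance alone marks about 1 in 20 groups, or 3.3 of 66. Pregnant replicate 2 also had the dimmest array of the series, with a 75th percentile of 142.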

How the results depend on the processing

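The log2 differences of CD163, LYZ and GPNMB at their brightest probes stayed above 0 under all 22 alternatives run for each, and probes and genes called stayed at 0 in all of them. LYZ moved by more than its spread only under normexp (1.44), and GPNMB under normexp (0.31), on slide 1 (0.68) and on slide 2 (1.84). With 1 array left out they ranged from 0.35 to 1.02 (CD163), 0.43 to 0.79 (LYZ) and 0.93 to 1.44 (GPNMB). The normexp fit gave background means of -811 to -2.81 on different arrays and moved the median difference of all genes from -0.034 to 0.21. Under it the median difference was -0.74 in the dimmest and 0.76 in the brightest sixth of genes, against -0.0099 and -0.065 without it. Subtraction of the local background, an alternative chosen after seeing the data, gave 0.58 (CD163), 0.62 (LYZ) and 0.89 (GPNMB). Array weights raised the probes at an unadjusted p under 0.05 from 608 to 2085.

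The r of CD163 and LYZ turned positive under normexp (0.76), with the replicate block (0.13) and without non-pregnant replicate 2 (range -0.29 to 0.49 with 1 array left out). That of CD163 and GPNMB turned with group means removed (-0.30) and without the 2 farthest arrays (-0.50), and ranged from 0.080 to 0.58 with 1 array left out. That of LYZ and GPNMB turned with group means removed (-0.20) and was 0.87 with the replicate block (exact permutation p = 0.25, adjusted 0.75). The replicate block leaves only the difference between the pregnant and non-pregnant sow of each number, so its r values hold the selected contrast. They do not show whether the genes move together from sow to sow. Over all sows the r of GPNMB with melanocyte and T cell genes had adjusted exact permutation p of 0.0161 and 0.0318, which draw on the selection of GPNMB and were 0.565 for both with group means removed (r 0.88 and -0.87). With 1 array left out r ranged from 0.88 to 0.98 and from -0.96 to -0.78, and the adjusted p stayed under 0.05 for 4 of 8 arrays (melanocyte) and 2 of 8 (T cell), also where r was as large. The cause of these changes was not tested.

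Sows of the same replicate number had correlated deviations of 0.22, 0.48, 0.43 and -0.12, so not every pair was above 0, and the labels do not say that the numbers mark pairs. They were not taken as pairs here, which does not show that they mark none, since the design holds 1 unrelated pair. With the number as a block limma still called 0 probes, with 797 at an unadjusted p under 0.05. The number of arrays limits all values, and the 2 GPNMB probes at or under background cannot check A_72_P545262.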
